A study of Homo sapiens with 2 samples.

Results

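Deubiquitinating enzymes are proteases that remove ubiquitin from proteins, and 54 of the 10987 genes in the deposited table carry a symbol of the USP, UCHL, OTUD or OTUB series. They were chosen by symbol alone: a symbol beginning with USP and a digit, UCHL, OTUD or OTUB, with hyphenated read-through names left out, of which the table had 0. The USP series (ubiquitin-specific proteases) gave 45 genes, the UCHL series (ubiquitin carboxy-terminal hydrolases) gave 2 and the OTUD and OTUB series (ovarian tumour proteases) gave 7. One of the 45, USP6NL, is a Rab GTPase-activating protein that has a USP symbol and is not a protease.

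Ubiquitin is attached to proteins singly or in chains, and a chain linked in the right way sends its carrier to the proteasome. Deubiquitinating enzymes trim or remove these chains, keep free ubiquitin available and work at the proteasome, on chromatin, on membranes and in signalling complexes. Bortezomib (bort) is a boronic acid inhibitor of the proteasome's catalytic core, and ubiquitin conjugates accumulate in cells in which that core is blocked.

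The study sequenced the RNA of THP1, a cell line from an acute monocytic leukaemia that carries an MLL rearrangement, after 24 h with bort and without treatment. Each condition was 1 library, the untreated library had no stated time or vehicle, and the bort concentration used for sequencing was not given in the sources used here. Because neither condition was replicated, no p-value is given and every statement compares these libraries, not the conditions. The values are FPKM (fragments mapped to a gene, scaled to its transcript length and to the size of the library), so levels can be set side by side between genes, but the number of reads behind each is unknown. A fold change is the difference of log2(FPKM + 1) between the bort-treated and the untreated library, a scale that understates the change of genes at low FPKM, and 2-fold was the threshold for a change.

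The labels of both libraries were checked against cell type markers. Of 15 monocytic and myeloid markers, 6 had a row, with a summed level of 24.8 FPKM in the untreated and 64.4 FPKM in the bort-treated library, and CD14, CSF1R and MPO had none. Of 15 erythroid markers, all 15 had a row, with a summed level of 5165 FPKM in the untreated and 4465 FPKM in the bort-treated library. GATA1, the erythroid master regulator, was at 161.3 FPKM in the untreated and 48.7 FPKM in the bort-treated library, and 5 of the 15 erythroid genes fell by 2-fold or more. The values therefore go against the monocytic label, and "untreated" and "bort-treated" below stand for the libraries so labelled. The erythroid levels differed between the same libraries as the deubiquitinase levels did, and their part in the differences below was not tested. In bulk RNA, fewer cells of a type and less RNA per cell cannot be told apart.

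As a whole the deubiquitinase genes differed little in total level between the libraries. Their summed level was 498.6 FPKM in the untreated and 503.4 FPKM in the bort-treated library, a log2 ratio of 0.01, or 0.237% and 0.227% of the sum over all genes. Of the 54 genes, 35 (64.8%) had a higher value in the bort-treated library, beside 50.3% of all genes. OTUD1, USP12 and USP34 rose by 2-fold or more, which is 5.56% of the 54 beside 8.08% of all genes. USP20 was the single gene that fell by 2-fold or more, 1.85% beside 10.2% of all genes. At 1.5-fold the counts were 13 higher (24.1%, beside 20.8%) and 10 lower (18.5%, beside 21.6%). The share past 2-fold was thus below that of the whole table in both directions, and the shares past 1.5-fold were near it. Their median log2 fold change was 0.19, and that of all genes was 0.00.

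**Figure D1:**
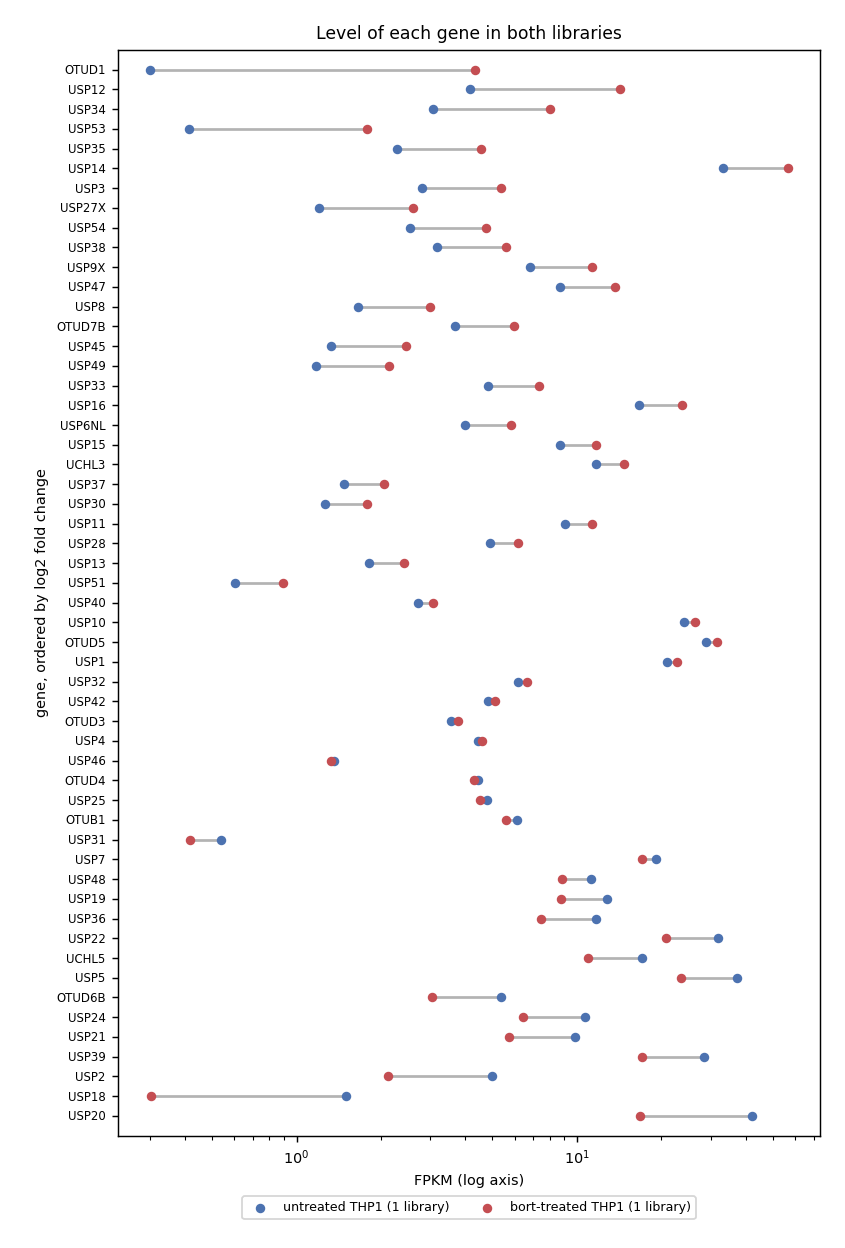
Levels of the 54 genes in FPKM on a log axis, ordered by log2 fold change, with a blue point for the untreated and a red point for the bort-treated library (1 library each, no error bars). The red point lies to the right for 35 genes, from USP4 at a small distance up to OTUD1, and to the left for 19, down to USP20.

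The order of the most abundant genes differed between the libraries. USP20 was the highest of the 54 with 42.2 FPKM and had rank 10 in the bort-treated library with 16.8 FPKM. USP14 had rank 3 with 33.4 FPKM and rank 1 in the bort-treated library with 56.6 FPKM. The 10 most abundant genes held 56.8% of the summed level in the untreated and 50.9% in the bort-treated library, and 9 of them were the same, with UCHL5 replaced by USP16. In the untreated library 16 genes reached 10 FPKM, and in the bort-treated library 17 did. Below 1 FPKM were USP31, USP53, OTUD1 and USP51 in the untreated library and USP31, USP18 and USP51 in the bort-treated library. Genes that reached 10 FPKM in either library (21 genes) summed to 395.5 FPKM untreated and 375.8 FPKM bort-treated, with 11 of 21 higher. The 33 genes below 10 FPKM in both summed to 103.1 and 127.6 FPKM, with 24 of 33 higher. The difference by level was present in the whole table too, where 1972 of 4576 genes above and 3554 of 6411 genes below that level were higher in the bort-treated library. Across the 54 genes the levels of both libraries, as log2(FPKM + 1), had a Pearson correlation of 0.883 over genes, which are not independent replicates. Over 10907 genes of the table this correlation was 0.888.

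Both deubiquitinases that dock onto the proteasome's regulatory particle were abundant, and they differed in opposite directions. USP14, which binds the particle reversibly and trims chains from substrates, was at 33.4 FPKM in the untreated and 56.6 FPKM in the bort-treated library, a log2 fold change of 0.74. UCHL5, which is held at the proteasome by the receptor ADRM1 and also occurs in the INO80 chromatin remodeller, was at 17.1 and 10.9 FPKM, a log2 fold change of -0.60. Neither reached 2-fold. PSMD14, a metalloprotease that is a built-in subunit of the particle and no member of the symbol series, was at 29.9 FPKM in the untreated and 60.8 FPKM in the bort-treated library and rose by 1.00 on the log2 scale. In the untreated library USP14 and PSMD14 were close in level and UCHL5 was lower, and in the bort-treated library the distance of UCHL5 to both was wider. Of the docking subunits, PSMD2 (formerly known as RPN1), which binds USP14, was at 47.5 and 69.8 FPKM (log2 fold change 0.55), and ADRM1 was at 118.8 and 128.2 FPKM (0.11). For the background of the particle, 30 of 32 subunits of the proteasome (93.8%, beside 50.3% of all genes) were higher in the bort-treated library, with a median log2 fold change of 0.50. Past 2-fold were 3 of them (9.38%), a share near the 8.08% of all genes. UCHL5 shares 451 exon bases with TROVE2, and USP14 shares 110 with THOC1, each on the opposite strand.

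The promoters of these proteasome-bound enzymes and of the genes with the highest and lowest fold changes are shown to set the sequence context beside the differences. They are RefSeq sequences of GRCh38.p14, from 250 bases before to 50 bases after the gene's start, written 5′ to 3′ on the gene's strand. The deposited values were made on GRCh37, and no coordinate of that build is given. Capitals mark letters that match one of 6 searched motifs on either strand: TGACNNNGC (the antioxidant response element core, also read by NFE2L1, the factor that induces proteasome genes), TGATGNAA (a C/EBP-ATF element), TGACGTCA (a cyclic AMP element), CCAAT (the NF-Y box), CACGTG (an E-box) and GAANNTTC (a heat shock element).
USP14, chr18:158307-158606, plus strand: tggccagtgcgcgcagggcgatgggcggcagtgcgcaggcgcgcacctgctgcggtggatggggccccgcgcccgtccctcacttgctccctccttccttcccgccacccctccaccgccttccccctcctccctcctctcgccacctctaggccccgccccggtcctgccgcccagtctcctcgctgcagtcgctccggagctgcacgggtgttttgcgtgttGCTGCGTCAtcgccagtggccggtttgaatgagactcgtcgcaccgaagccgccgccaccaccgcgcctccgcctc
UCHL5, chr1:193059311-193059610, minus strand: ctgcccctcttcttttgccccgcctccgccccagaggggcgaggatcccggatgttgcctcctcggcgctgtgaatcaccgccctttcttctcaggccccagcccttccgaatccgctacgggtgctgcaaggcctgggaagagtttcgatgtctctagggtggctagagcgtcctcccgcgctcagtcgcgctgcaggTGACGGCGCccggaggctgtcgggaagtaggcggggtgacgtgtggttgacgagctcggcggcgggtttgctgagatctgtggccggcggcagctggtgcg
PSMD14, chr2:161308175-161308474, plus strand: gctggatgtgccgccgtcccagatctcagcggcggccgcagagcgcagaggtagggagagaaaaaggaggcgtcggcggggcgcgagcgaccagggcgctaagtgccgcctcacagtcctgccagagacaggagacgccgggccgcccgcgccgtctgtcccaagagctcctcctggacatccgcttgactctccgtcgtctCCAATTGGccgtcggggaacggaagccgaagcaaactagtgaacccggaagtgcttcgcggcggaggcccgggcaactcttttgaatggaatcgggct
OTUD1, chr10:23438825-23439124, plus strand: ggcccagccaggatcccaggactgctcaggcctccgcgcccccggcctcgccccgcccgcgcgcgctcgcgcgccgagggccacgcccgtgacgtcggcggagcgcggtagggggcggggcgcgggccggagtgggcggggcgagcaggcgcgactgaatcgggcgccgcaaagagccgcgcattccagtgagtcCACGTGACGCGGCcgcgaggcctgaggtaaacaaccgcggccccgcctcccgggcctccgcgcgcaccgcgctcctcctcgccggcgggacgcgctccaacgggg
USP12, chr13:27171762-27172061, minus strand: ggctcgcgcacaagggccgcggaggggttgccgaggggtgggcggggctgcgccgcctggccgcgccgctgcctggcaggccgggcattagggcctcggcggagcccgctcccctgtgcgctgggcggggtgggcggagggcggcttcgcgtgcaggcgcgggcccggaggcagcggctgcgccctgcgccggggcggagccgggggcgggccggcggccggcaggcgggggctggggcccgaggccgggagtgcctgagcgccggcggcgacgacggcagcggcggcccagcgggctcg
USP20, chr9:129835208-129835507, plus strand: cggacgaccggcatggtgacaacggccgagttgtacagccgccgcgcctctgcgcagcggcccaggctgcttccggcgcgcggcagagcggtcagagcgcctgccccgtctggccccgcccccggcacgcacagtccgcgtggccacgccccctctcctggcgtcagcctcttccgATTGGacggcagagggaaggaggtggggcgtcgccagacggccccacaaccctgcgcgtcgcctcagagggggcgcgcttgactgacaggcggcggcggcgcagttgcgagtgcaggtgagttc

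The letters TGACNNNGC occur in the promoters of USP14, UCHL5 and OTUD1, in genes that were higher and lower alike. In OTUD1 the match overlaps the CACGTG. PSMD14 holds the CCAAT letters on both strands, USP20 holds them on the minus strand, and USP12 holds none of the 6. The RefSeq table had a promoter for 45 of the 54 genes. TGACNNNGC was in 8 of the 45 (17.8%), in 15.5% of the 8544 promoters of genes in the deposited table and in 13.6% of all 27305 promoters. These were OTUD1, UCHL3, USP13, USP14 and USP38, which were higher in the bort-treated library, and OTUB1, UCHL5 and USP2, which were lower. CCAAT was in 13 of 45 (28.9%), beside 37.4% of the promoters of genes in the table and 35.7% of all promoters. CACGTG was in 5 (11.1%, beside 10.9% and 7.43%) and TGATGNAA in OTUD3 alone (2.22%, beside 1.56% and 3.67%). TGACGTCA was in 0 of 45 (beside 3.55% and 1.98%), and so was GAANNTTC (beside 4.40% and 6.87%). The median GC content of the 45 promoters was 69.7%, beside 65.7% for the genes of the table, and USP12 had the highest of the 45, 84.3%.

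OTUD1 had the largest log2 fold change of all 54 genes. OTUD1 removes chains linked through lysine 63 and acts in innate immune and stress signalling. It was at 0.301 FPKM in the untreated library, the lowest level of the 54, and at 4.32 FPKM in the bort-treated library, a log2 fold change of 2.03. The ratio of the FPKM values was 14.4, so the pseudocount lowers the change of this gene, and 0.783% of all genes had a larger log2 fold change. The other genes of its group, those with roles in NF-κB and interferon signalling, did not move together. In the group 4 of 7 (57.1%, beside 50.3% of all genes) were higher in the bort-treated library. OTUD1 alone passed 2-fold, 14.3% of the 7 beside 8.08% of all genes that rose by 2-fold or more. OTUD7B (Cezanne), which cleaves chains linked through lysine 11 and restrains NF-κB, was at 3.67 and 5.96 FPKM (log2 fold change 0.58), and USP38 was at 3.17 and 5.61 FPKM (0.66). USP15 was at 8.69 and 11.7 FPKM (0.39). USP18, which removes the ubiquitin-like modifier ISG15 and restrains the type I interferon receptor, went the other way, with 1.51 FPKM in the untreated and 0.304 FPKM in the bort-treated library. Its FPKM ratio was 4.96 in favour of the untreated library, but on the log2(FPKM + 1) scale the difference was -0.94, short of 2-fold. USP18 has a near-identical copy, USP41, which had no row, so reads of the pair could have been divided in counting. OTUD1 and USP18 had the lowest levels of the 54 in the untreated and in the bort-treated library respectively. No gene of the table was below 0.501 FPKM in both libraries. OTUD1 and USP53 reached that level only in the bort-treated library, and USP18 and USP31 only in the untreated. OTUD1 thus has its row through the library in which it was higher.

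USP12 rose from 4.17 FPKM in the untreated to 14.2 FPKM in the bort-treated library, a log2 fold change of 1.56, and moved from rank 32 to rank 12 among the 54. USP12 is active only when bound by WDR48 (UAF1), a subunit that it shares with USP46 and USP1, and WDR20 stimulates it further. Its close relative USP46 was at 1.36 and 1.33 FPKM, and USP1, which acts on FANCD2 and PCNA in DNA repair, was at 21.0 and 22.7 FPKM. The activator WDR48 was at 5.56 and 8.55 FPKM (log2 fold change 0.54) and WDR20 at 1.75 and 2.43 FPKM (0.32). Of the enzymes that share the activator, USP12 was therefore the single one that changed by 2-fold.

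On endosomes, USP8 and the STAM proteins work together on the receptors that enter the sorting machinery, where USP8 removes ubiquitin from receptors and from its partners. USP8 was at 1.65 FPKM in the untreated and 3.0 FPKM in the bort-treated library (log2 fold change 0.59). Both partners passed 2-fold: STAM was at 7.87 and 18.3 FPKM (1.12), and STAM2 was at 1.71 and 6.37 FPKM (1.44). With the GC trend of the whole table removed, STAM had 0.82 and STAM2 had 0.90, both within 2-fold. STAMBP, the metalloprotease that binds STAM at the same place, was at 3.36 and 4.13 FPKM (0.24). USP9X, a large enzyme with roles in trafficking and polarity, was at 6.82 and 11.3 FPKM (0.66). USP2 had the opposite direction, with 4.98 FPKM untreated and 2.11 FPKM bort-treated (-0.94), a ratio of 2.35 that did not pass 2-fold once the pseudocount was added.

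USP34 and USP20 were the other genes past 2-fold. USP34, a very large enzyme that acts on axin in Wnt signalling, was at 3.08 FPKM in the untreated and 8.01 FPKM in the bort-treated library and rose by 1.14 on the log2 scale. It shares 3263 exon bases with AHSA2P on the opposite strand, which was at 6.09 and 7.40 FPKM. USP20, which with USP33 was found as a pair of enzymes that bind the von Hippel-Lindau protein and which sits partly on endoplasmic reticulum membranes, was at 42.2 FPKM in the untreated and 16.8 FPKM in the bort-treated library and fell by 1.28 on the log2 scale. It shares 60 exon bases with C9orf78 on the opposite strand. The labels and the study's methods name different library kits, 1 of them stranded, so whether reads of opposite strands were separated is not settled. The part of overlapping reads in these changes was not tested. Next to the threshold, USP34 was the nearest inside and USP53 (0.98) the nearest outside among the higher genes, and USP20 was the nearest inside and USP18 (-0.94) the nearest outside among the lower.

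**Figure D2:**
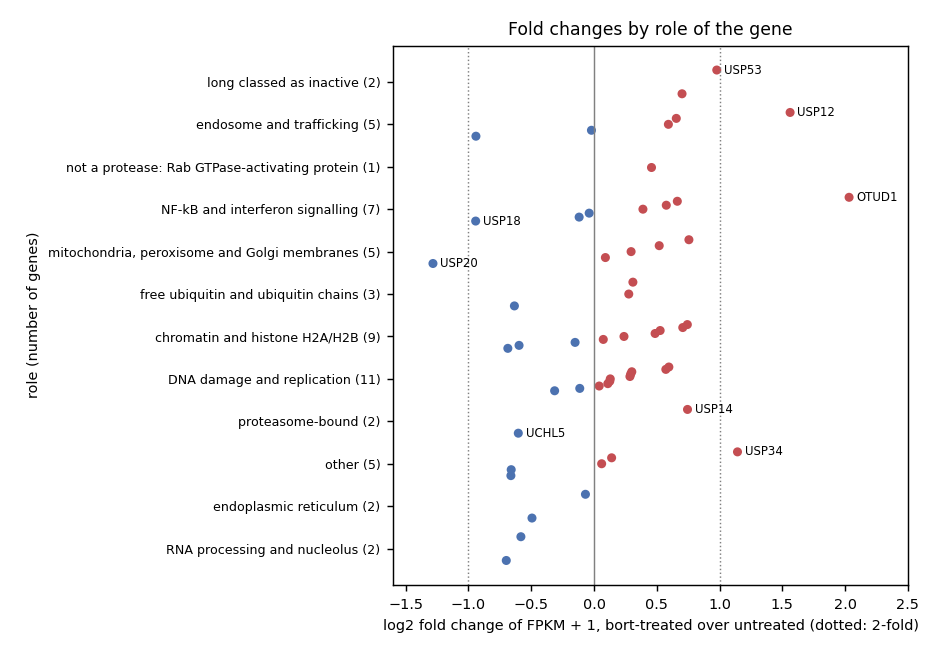
Log2 fold change of FPKM + 1, bort-treated over untreated, of each of the 54 genes, by role (number of genes in brackets). Each point is 1 gene, red where higher and blue where lower in the bort-treated library, and the dotted lines mark 2-fold. OTUD1, USP12 and USP34 lie beyond the right line and USP20 beyond the left, and most roles hold points on both sides of 0.

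Enzymes that take ubiquitin off histones H2A and H2B gave a mixed picture, and the enzymes of the SAGA module differed in direction among themselves. Of 9 genes in the chromatin group, 6 (66.7%, beside 50.3% of all genes) were higher in the bort-treated library. In either direction 0 passed 2-fold, beside 8.08% of all genes higher and 10.2% lower. With the GC trend removed 4 of the 9 were higher. USP22, the enzyme of the SAGA co-activator's deubiquitinating module, was at 32.0 FPKM in the untreated and 20.8 FPKM in the bort-treated library (log2 fold change -0.60). USP27X and USP51 can take its place on the adaptors ATXN7L3 and ENY2. USP27X was at 1.2 and 2.6 FPKM (0.71), and USP51 at 0.606 and 0.895 FPKM (0.24). USP22 exceeded USP27X by 26.5 times in the untreated and by 8.01 times in the bort-treated library, and USP51 by 52.8 and 23.3 times. The adaptors differed in direction as well, with ATXN7L3 at 16.6 and 7.83 FPKM (-0.995, just short of 2-fold) and ENY2 at 5.79 and 9.57 FPKM (0.64). Of the other enzymes acting on H2A, USP3 was at 2.80 and 5.35 FPKM (0.74), USP16 at 16.7 and 23.7 FPKM (0.49) and USP21 at 9.82 and 5.72 FPKM (-0.69). USP7, which stabilises MDM2 and p53, was among the most abundant of the group with 19.1 and 17.1 FPKM (-0.15). USP49 (0.53) and USP42 (0.07) had positive log2 fold changes.

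The largest group, enzymes of the DNA damage response and replication, had 0 genes past 2-fold. Of all genes 8.08% rose and 10.2% fell by 2-fold or more. Of its 11 genes, 9 (81.8%, beside 50.3% of all genes) were higher in the bort-treated library, and the median log2 fold change was 0.13. OTUD5 was at 28.9 and 31.6 FPKM, and USP10, which acts on p53 and binds the stress granule proteins G3BP1 and G3BP2, was at 24.1 and 26.4 FPKM, each with a log2 fold change of 0.13. The highest value in the group was that of USP47, an enzyme of base excision repair, with 8.68 and 13.6 FPKM (0.60), and the lowest was that of USP48 with 11.2 and 8.84 FPKM (-0.31). USP45, with 1.33 and 2.46 FPKM, had a log2 fold change of 0.57. USP28, USP37, USP11, USP4 and OTUB1 lay between -0.11 and 0.30. With the GC trend removed 8 of the 11 genes were higher (beside 49.8% of all genes) and the median was 0.05. OTUD5 then had 0.52, USP10 0.05 and USP1 -0.23.

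Smaller groups contained several of the lower genes. USP5 (isopeptidase T), which takes apart unanchored chains, was at 37.2 FPKM in the untreated and 23.6 FPKM in the bort-treated library (log2 fold change -0.63), while its relative USP13 was at 1.82 and 2.42 FPKM (0.28) and UCHL3, which processes ubiquitin precursors, at 11.7 and 14.7 FPKM (0.31). Both genes of the RNA processing group were lower. USP39, a spliceosome protein that has lost its protease activity, was at 28.4 and 17.1 FPKM (-0.70), and the nucleolar enzyme USP36 was at 11.7 and 7.46 FPKM (-0.58). Of the endoplasmic reticulum group, USP19, which is anchored in that membrane, was at 12.8 and 8.80 FPKM (-0.49) and USP25 at 4.80 and 4.53 FPKM (-0.07). Besides USP20, the genes assigned to mitochondria, peroxisomes and the Golgi apparatus were all higher without passing 2-fold, with USP35 at 2.29 and 4.55 FPKM (0.76) and USP30, which opposes mitophagy at the outer mitochondrial membrane, at 1.26 and 1.78 FPKM (0.30). USP53 and USP54, long classed as inactive, were at 0.412 and 1.78 FPKM (0.98) and at 2.54 and 4.76 FPKM (0.70). Among the remaining genes, USP24 was at 10.7 and 6.41 FPKM (-0.66) and OTUD6B at 5.38 and 3.04 FPKM (-0.66). The genes not yet given, USP40 (0.14), USP32 (0.09), OTUD3 (0.06), OTUD4 (-0.04) and USP31 (-0.12), had log2 fold changes near 0. USP6NL, which is not a protease, was at 3.99 and 5.82 FPKM (0.45).

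Close relatives were compared next, because a pair that acts on the same targets can shift its balance without a change in the sum. Of 20 pairs of close relatives drawn up, 13 had both genes in the table, 22 genes in all, and 6 pairs had the same direction and 7 opposite directions. Before any removal of the GC trend described below, the widest gap was between USP20 and USP33. USP33 was at 4.83 FPKM in the untreated and 7.35 FPKM in the bort-treated library (log2 fold change 0.52), so the ratio of USP20 to USP33 was 8.74 in the untreated and 2.28 in the bort-treated library, and the gap between their log2 fold changes was 1.80. For USP12 and USP46 the ratio was 3.06 and 10.7, a gap of 1.58. For USP5 and USP13 it was 20.4 and 9.76, a gap of 0.91. USP36 and USP42 moved from a ratio of 2.42 to 1.46. USP25 and USP28 (log2 fold changes -0.07 and 0.29) also had opposite directions, by a gap of 0.35. USP46 and USP25 had small negative values that turned positive under another scaling of the libraries, so the opposite direction of their pairs depends on it, as that of USP22 and USP51 depends on the GC trend. In 5 of the 7 opposite pairs the relative with the higher untreated level was the one that was lower in the bort-treated library, the exceptions being USP12 with USP46 and USP25 with USP28. The 5 include USP22 with both USP27X and USP51. The untreated value enters both the level and the fold change, so level and direction are not independent. Log2 fold change and untreated FPKM had a Spearman correlation of -0.47 over the 54 genes and -0.36 over 10907 genes. USP4 and USP15, USP4 and USP11, USP11 and USP15, USP16 and USP45, USP53 and USP54, and USP2 and USP21 had the same direction. With the GC trend removed 3 of these 6 turned opposite, USP4 with USP15, USP11 with USP15 and USP16 with USP45, so that 4 pairs had the same direction and 9 opposite directions. The gap of USP20 and USP33 was then 0.98, and the widest was that of USP12 and USP46 with 1.48.

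**Figure D3:**
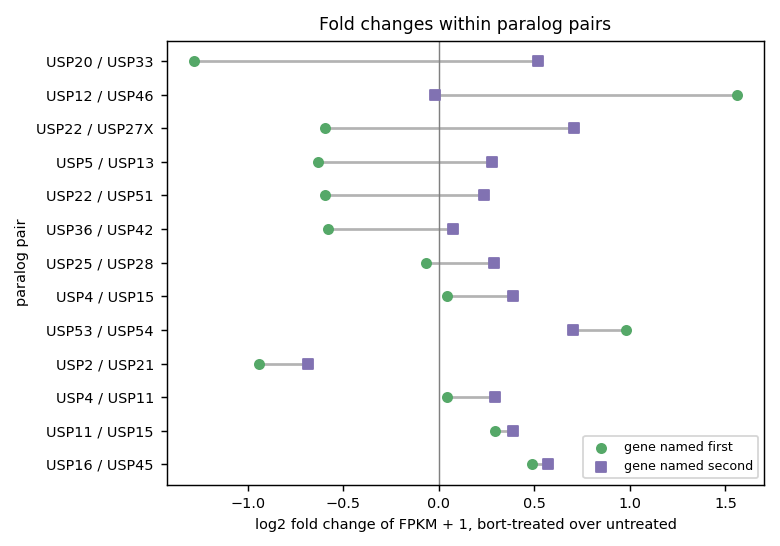
Log2 fold changes of FPKM + 1, bort-treated over untreated, for 13 pairs of closely related genes, with a point for each gene and a line joining the pair. With the GC trend left in, as plotted, the line is longest for USP20 and USP33 (1.80) and for USP12 and USP46 (1.58), and it crosses 0 for 7 pairs. After its removal the directions were opposite in 9 pairs.

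The direction of the differences varied with the GC content of the transcripts, in the deubiquitinase genes as in the whole table. Over the 54 genes, log2 fold change and GC content of the longest GENCODE transcript had a Spearman correlation of -0.38, and over 10907 genes one of -0.48. These are descriptions over genes of the same libraries, which share their depth and base composition. In the class of the 18 GC-poorest genes, 13 (72.2%) had higher values in the bort-treated library and the median log2 fold change was 0.50, beside 80.7% of all genes in that range of GC content. Of the middle 18 it was 14 (77.8%, beside 61.2%), with a median of 0.26, and of the 18 with the highest GC content it was 8 (44.4%, beside 31.9%), with a median of -0.30. When the trend with GC content over all genes was subtracted, 28 of 54 genes (51.9%) were higher in the bort-treated library, beside 49.8% of all genes, and the 3 classes had 9, 10 and 9 higher genes. The median over the 54 genes was then 0.05. The share of higher genes among the deubiquitinases was thus near that of the whole table after the subtraction. Whether the trend arose in the cells or in library preparation was not tested.

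The genes past 2-fold changed with that subtraction. OTUD1, whose transcript has a GC content of 49.9%, had 2.09 in place of 2.03, and USP12 (38.7%) had 1.10 in place of 1.56. USP34 had 0.77 and USP20 had -0.86, both within 2-fold. USP35, with 61.3% GC, had 1.22 and passed 2-fold, as did UCHL5 with -1.20 and OTUD6B with -1.27 in the other direction. USP14 had 0.26, PSMD14 had 0.28 and USP53 had 0.35. The transcripts of USP14 and UCHL5 had a GC content of 38.1% and 35.2%. The difference between their log2 fold changes was 1.35 before and 1.47 after the subtraction.

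Deubiquitinases of other families and those without a symbol of the USP, UCHL, OTUD or OTUB series give the context. Of 22 such genes on a list, 20 had a row, 14 (70%, beside 50.3% of all genes) were higher in the bort-treated library, 4 (20%, beside 8.08%) rose by 2-fold or more and 0 (beside 10.2%) fell by 2-fold or more, with a median log2 fold change of 0.45. TNFAIP3 (A20), an ovarian tumour protease that terminates NF-κB signalling and is itself a target of NF-κB, was at 0.532 FPKM in the untreated and 3.73 FPKM in the bort-treated library (1.63). ZUFSP, which cleaves chains linked through lysine 63 and acts in DNA repair, was at 6.24 and 17.1 FPKM (1.32), and VCPIP1, a partner of the ATPase VCP, was at 1.76 and 4.59 FPKM (1.02). PSMD14 was the other gene past 2-fold. BAP1, the H2A deubiquitinase that works with ASXL1, had the lowest value of the 20, with 11.8 and 5.58 FPKM (-0.96). The 4 further ovarian tumour proteases, TNFAIP3, VCPIP1, YOD1 and OTULIN, were each higher by more than 1.5-fold, beside 20.8% of all genes. Of the 7 of the OTUD and OTUB series 4 were higher and 1 (14.3%) was higher by 1.5-fold or more. After the GC trend was subtracted 12 of the 20 genes were higher and the median was 0.12. TNFAIP3 was then at 1.66 and the only one of the 4 still past 2-fold, with ZUFSP at 0.87, VCPIP1 at 0.55 and PSMD14 at 0.28. JOSD2 newly passed 2-fold with 1.21, in place of 0.37. YOD1 then had 0.15 and OTULIN 0.48.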

How the data were processed

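RNA sequencing of 1 bort-treated (24 h) and 1 untreated THP1 library was used. Per the study's methods, the authors aligned trimmed reads with HISAT2 2.0.4 and assembled transcripts with StringTie 1.2.3. The deposited values are FPKM per gene, and the tool that computed them is not given in the sources used here. GRCh37 is the build in the submitters' processing notes, and the annotation is not given in the sources used here. The table holds 10987 genes, none below 0.501 FPKM in both libraries, so a gene without a row was low or unlisted in both. Its 7 lines without a gene were left out.

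From these values log2((bort FPKM + 1) / (untreated FPKM + 1)) was computed over all genes, with 2-fold as the threshold. No p-value was computed, and counts of genes are read beside the same share of all genes. GC content came from the longest GENCODE 29 transcript (GRCh38), matched for all 54 members and 99.3% of genes, and the trend was a lowess curve with a span of 0.3. Overlaps of exons were read from the same annotation. Promoters were RefSeq's. Scripts ran in Python 3.11.15 with pandas 2.3.3, statsmodels 0.14.6 for the trend and scipy 1.17.1 for correlations. The calculation was tested on simulated data.

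The members and all lists, including roles, pairs and motifs, were chosen with earlier results of these data known. The text names every member past 2-fold, the 10 most abundant untreated, the extremes of each role and list, the pairs, and the proteasome-bound enzymes with their partners. Alternatives were other pseudocounts, scalings, thresholds, a 1 FPKM filter and removal of the GC trend. Leaving out USP6NL, or the members that share exons with a listed gene, was added after the data had been seen.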

Additional observations from a re-analysis of the deposited data

How the results depend on the processing

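The count of genes higher by 2-fold or more (3) became 5 with a pseudocount of 0.1 FPKM and 5 with none, 7 of 73 when all deubiquitinase families were counted, 13 at a 1.5-fold threshold and 1 at a 4-fold threshold. The 5 genes are 9.26% of the 54, beside 14.3% of all genes with 0.1 FPKM and 15.1% with none. The 7 of 73 are 9.59%, beside 8.08% of all genes. The 13 at 1.5-fold are 24.1%, beside 20.8% of all genes. The count lower by 2-fold or more (1) became 3 with a pseudocount of 0.1 FPKM, 3 with 0.5 FPKM and 3 with none, because USP2 and USP18 joined USP20. Of all genes 15.1%, 12.3% and 15.6% were lower at these settings, beside 5.56% of the 54 at each. The count lower became 2 with the GC trend removed (3.70%, beside 6.43% of all genes). It became 0 of 44 without the 10 members that share exons with a listed gene, beside 10.2% of all genes. At 1.5-fold it became 10 (18.5%, beside 21.6% of all genes) and at 4-fold 0. The share of all genes past 4-fold is not given here, so no reading rests on the counts at 4-fold. Scaling by the upper quartile or by the total without the 20 most abundant genes gave 38 of 54 genes higher, in place of 35. That was 70.4%, beside 55.1% of all genes under either scaling. The log2 ratio of the summed level of the 54 genes was 0.12 under either, in place of 0.01. Of the 54 genes, 42 kept their direction in every alternative computed for them (at most 8), among them the 4 past 2-fold. OTUD1 and USP12 were past 2-fold in each of theirs, which for OTUD1 leave out the 1 FPKM filter. Another pseudocount or the filter cannot turn a direction, so only the scalings and the removal of the GC trend could. The rows of OTUD1 and USP53, both among the 5 higher genes with 0.1 FPKM or no pseudocount, rest on their bort-treated level. The row of USP18 rests on its untreated level. The removal of the GC trend turned OTUB1, OTUD3, UCHL3, USP1, USP15, USP16, USP32, USP37 and USP51, and a scaling turned OTUD4, USP25 and USP46. With a single library a side, pairing and the omission of a library could not be tried. Depth is unknown and sets no limit that can be given.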

Other observations

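The proteases of other ubiquitin-like modifiers were also compared. Of 12 genes on a list of SUMO, NEDD8 and UFM1 proteases, 11 had a row. Of these, 9 (81.8%, beside 50.3% of all genes) were higher, with a median log2 fold change of 0.36. In either direction 0 passed 2-fold, beside 8.08% of all genes higher and 10.2% lower. With the GC trend removed 7 of 11 were higher, the median was 0.11 and SENP3 passed 2-fold with 1.23. SENP5, a SUMO protease of the nucleolus and mitochondria, was at 6.77 FPKM in the untreated and 13.9 FPKM in the bort-treated library (0.94), and the nucleolar SENP3 was at 7.86 and 15.6 FPKM (0.91). SENP6 and SENP7, which act on SUMO chains, were at 5.12 and 8.75 FPKM (0.67) and at 1.24 and 2.68 FPKM (0.72). The lowest value was that of DESI1, with 13.4 and 8.23 FPKM (-0.64). COPS5, the subunit of the COP9 signalosome that removes NEDD8 from cullins, was at 17.0 and 14.2 FPKM (-0.25).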
